A study of Rattus norvegicus with 5 samples.

Results

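Collagen chain genes, which encode the subunits of all collagens, were examined by RNA-seq in cell cultures from rat dorsal root ganglia. They were chosen by symbol alone, as every gene in the deposited combined table whose name is Col, a number, a and a number. This gave 44 of 33014 genes. The 5 libraries form 1 group of wild-type Sprague Dawley rat cells taken at postnatal day 10. Every culture received PBS at day 1 and was lysed at day 8 of culture, with 3 wells combined per library. The labels name a single litter of 10 pups and do not state that replicates came from separate preparations. The spread between replicates may therefore be technical, and the p-values cover that spread alone. Libraries held 21596608 to 27913098 estimated reads. Levels are in TPM, a per-length unit in which read number is divided by transcript length and scaled to a library total of 1000000. Errors are SD over n = 5 libraries.

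Collagens are secreted proteins in which chains with a repeated glycine pattern wind into a triple helix. Fibrillar types form the fibres of connective tissue, type IV forms the sheet of the basement membrane, and other types attach to fibres, link cells to matrix or span the cell membrane. In peripheral nerve and ganglion, Schwann cells and satellite glia lie on a basement membrane and fibroblasts surround them with fibrillar matrix. Every library mixes the RNA of several cell types. All 8 neuron markers were detected, meaning at least 1 TPM in every library, and so were the Schwann cell markers Mbp and Sox10. All 5 satellite glia, all 8 fibroblast and all 8 macrophage markers were detected as well. Of 8 endothelial markers 3 were detected, Cdh5 at 17.0 to 19.6 TPM, Tek at 4.27 to 5.59 TPM and Egfl7 at 1.32 to 2.47 TPM. The lowest of the 8, Cldn5, was near 0. In such bulk samples, fewer cells of a type and less RNA per cell cannot be told apart.

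Most collagen chain genes were expressed, over a wide range of levels. Of the 44 chains, 31 were detected, against a background of 41.3% of all genes. Their mean levels ran from 1.40 TPM (Col4a5) to 597 TPM (Col1a2), and the other 13 had means between 0.0128 and 0.760 TPM. The median over all 44 chains was 7.07 TPM, against 0.297 TPM over all genes. Together the chains held between 0.308% and 0.334% of the TPM of a library. The 3 highest chains, Col1a2, Col16a1 and Col3a1, made up 43.4% ± 0.405 of the summed collagen TPM, and the 10 highest made up 80.1% ± 0.491. In the order of levels, the ranges of neighbouring chains overlapped at 20 of 30 steps among the detected chains and stood apart at 10.

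**Figure D1:**
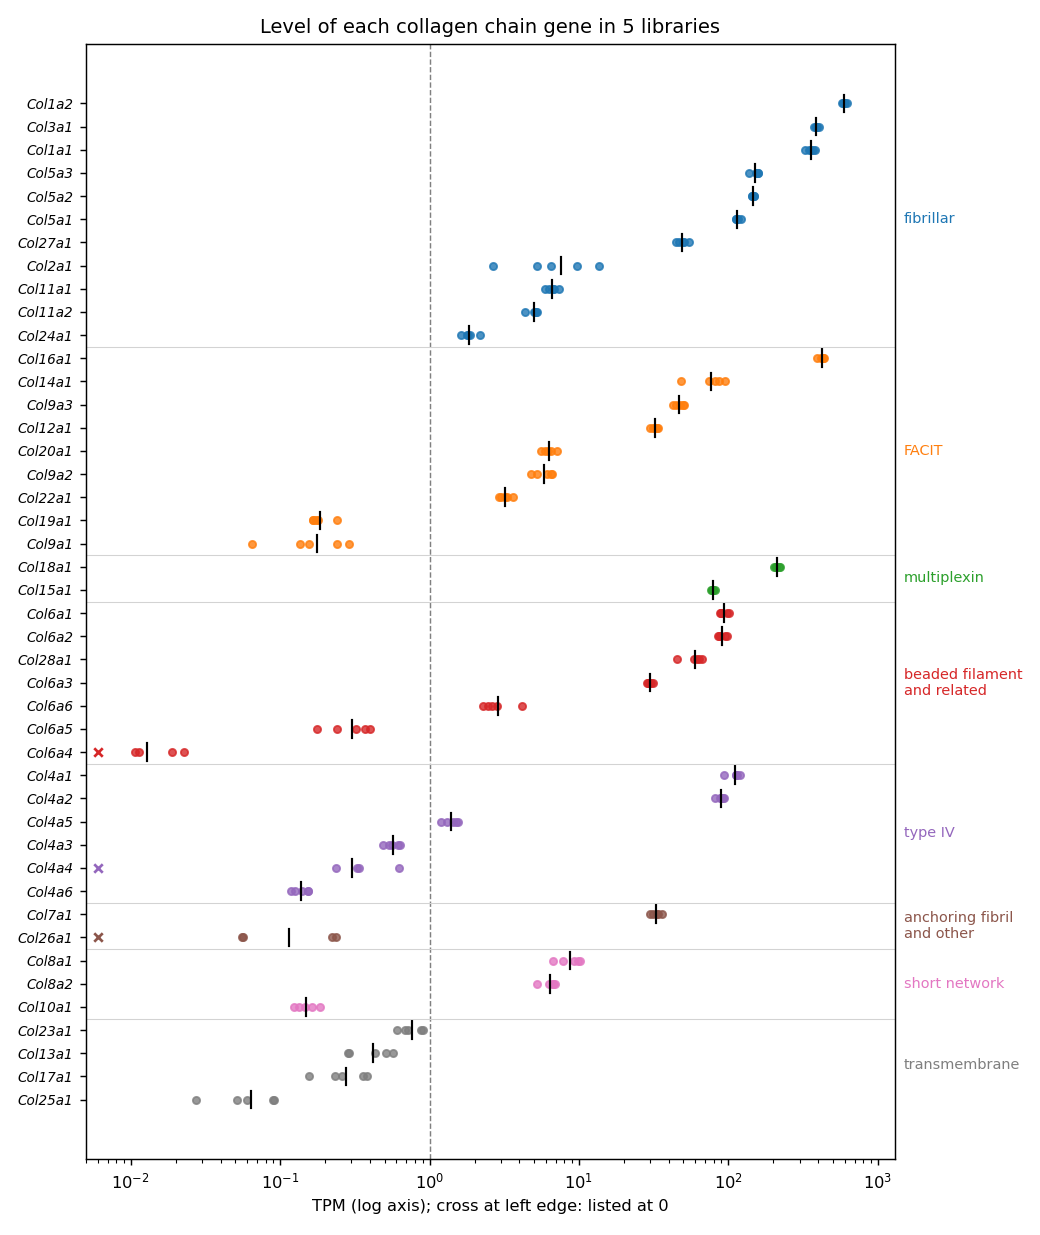
Level of all 44 chain genes in TPM on a log axis, 1 point per library and a black line at the mean, grouped by structural class. The dashed line is 1 TPM; all 11 fibrillar chains lie to its right in every library, and all 4 transmembrane chains lie to its left.

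By structural class, fibrillar chains held more than any other class in every library. Their share of the summed collagen TPM was 56.9%, 56.9%, 56.1%, 56.0% and 56.2% in replicates 1 to 5. Fibril-associated collagens of the FACIT class, which coat the surface of fibrils, followed at 18.3% ± 0.758. The multiplexins, of the basement membrane zone, held 8.99% ± 0.413 and the beaded filament class 8.53% ± 0.319. Type IV chains held 6.23% ± 0.300. The share of the transmembrane class was 0.0470% ± 0.00712, with 0 of 4 chains detected. No 2 of the fibrillar, FACIT and type IV ranges overlapped, whereas the multiplexin range (8.60% to 9.69%) overlapped that of the beaded filament class (8.19% to 8.88%).

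**Figure D2:**
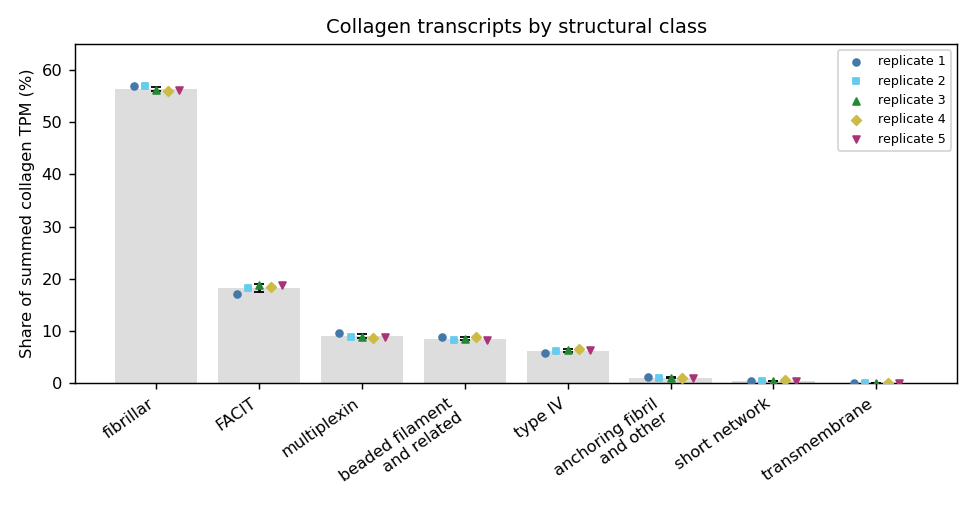
Share of the summed collagen TPM held by each structural class, in percent. Bars are means with SD over 5 libraries and points are single libraries; fibrillar chains stand near 56.4% and FACIT chains near 18.3%.

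Among fibrillar genes, the chains of collagens I and III led. Collagen I is the main protein of connective tissue fibres, and its α1 chains outnumber its α2 chain in the usual trimer. Col1a2 was at 580.2, 623, 605, 582 and 594 TPM in replicates 1 to 5. Col1a1 was at 326, 382, 349, 356 and 371 TPM. Each library thus had more Col1a2 than Col1a1, and the ranges of the genes stood apart. The log2 ratio of Col1a2 to Col1a1, taken within each library with 0.1 added to both levels, was 0.74 ± 0.06 (1.67-fold; limma adjusted p = 3.33e-07, higher in 5 of 5 libraries). Adjustment covered the 14227 other genes set against Col1a1, of which 99.6% were called different in one direction or the other. Almost any gene differs from another at this precision, so for this and the later ratios the size carries the information and the call carries little. In CPM of estimated reads, without length normalization, the log2 ratio was 0.34 (limma adjusted p = 4.91e-05). Folds and percentages given for a ratio are taken from its mean log2 value and so can differ from the quotient of the mean levels. Such ratios set different transcripts side by side, and any effect of sequence on how well a transcript is counted was not tested.

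Col3a1, the homotrimeric collagen of elastic tissues that mixes into collagen I fibrils, was at 385, 395, 384, 402 and 376 TPM. It lay close to Col1a1, with overlapping ranges and a log2 ratio of 0.12 ± 0.09 (limma adjusted p = 0.0374). This call was lost without replicate 1, 3 or 4, and in CPM without length normalization the direction turned to -0.18 (limma adjusted p = 0.00553).

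Promoter windows from RefSeq on the GRCr8 build were found for 35 of the 44 chains, each holding 250 bases before the annotated start and 50 after it. The windows of Col1a2 and Col16a1, the most abundant chains, are shown because they differ in their sequence. Capitals mark the motif TATAAA (reverse form TTTATA), the motif CCAAT (reverse form ATTGG) and the motif GGGCGG (reverse form CCGCCC), each searched on both strands. This build differs from the one named for the counts, so the windows describe the gene's annotation and not the reads.
Col1a2 (GRCr8 chr4:33518307-33518606, plus strand): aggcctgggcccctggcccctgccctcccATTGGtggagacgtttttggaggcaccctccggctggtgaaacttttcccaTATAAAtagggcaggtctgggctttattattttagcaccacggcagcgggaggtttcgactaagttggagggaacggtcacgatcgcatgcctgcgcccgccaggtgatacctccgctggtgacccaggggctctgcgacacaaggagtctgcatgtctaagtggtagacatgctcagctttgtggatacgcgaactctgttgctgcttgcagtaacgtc
Col16a1 (GRCr8 chr5:147672846-147673145, plus strand): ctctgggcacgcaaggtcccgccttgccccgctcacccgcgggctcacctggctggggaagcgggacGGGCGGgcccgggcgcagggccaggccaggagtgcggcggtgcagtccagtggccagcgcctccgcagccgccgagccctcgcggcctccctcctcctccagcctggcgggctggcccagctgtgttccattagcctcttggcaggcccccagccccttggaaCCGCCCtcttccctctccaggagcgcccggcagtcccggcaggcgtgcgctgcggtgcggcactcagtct
The Col1a2 window holds TATAAA and has a GC content of 57.0%. That of Col16a1 lacks this motif, carries GGGCGG on both strands, and has a GC content of 75.0%. TATAAA was found in 4 of 35 collagen windows (11.4%; Col10a1, Col13a1, Col17a1 and Col1a2), against 14.2% of all 33469 windows. Of these 4 chains, Col1a2 was detected and the other 3 were not. CCAAT stood in 31.4% of collagen windows, against 37.5% of all, and GGGCGG in 54.3%, against 33.1% of all. Collagen windows had a median GC content of 59.7%, against 51.7% for all windows.

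All chains of collagen V, which sits inside collagen I fibrils and limits their width, were expressed at similar levels. Col5a3 encodes the chain known from rat Schwann cells as a heparan sulfate-binding collagen. It was at 137, 158, 153, 156 and 157 TPM, with replicate 1 below the rest. Col5a2 was at 144 to 149 TPM and had the lowest relative spread of the detected chains, with a CV of 1.65%. Col5a1 was at 113 to 121 TPM, below both in every library. The log2 ratio to Col5a1 was 0.40 ± 0.10 for Col5a3 (1.32-fold; limma adjusted p = 7.37e-05) and 0.34 ± 0.03 for Col5a2 (1.27-fold; limma adjusted p = 9.43e-06). Of all genes set against Col5a1, 98.8% were called.

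The other fibrillar chains were lower. Col27a1, a long fibrillar chain known from developing cartilage, had 49.2 ± 3.60 TPM. Col11a1 and Col11a2, of collagen XI, were at 6.59 ± 0.528 and 4.98 ± 0.344 TPM. The log2 ratio of Col11a1 to Col5a1, a chain it can replace in mixed V/XI trimers, was -4.11 ± 0.09. Col24a1 had 1.85 ± 0.213 TPM.

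Col2a1, the main collagen of cartilage, varied more between libraries than any other detected chain. It was at 2.66, 5.24, 6.52, 13.6 and 9.75 TPM in replicates 1 to 5, a CV of 56.1%, and the highest library was 5.11-fold above the lowest. Its 1 named transcript showed the same order, with 37.9, 55.0, 58.9, 149 and 75.8 estimated reads. Its log2 ratio to Col1a1 was -5.74 ± 0.84. Of 8 other cartilage markers, 3 were detected (Comp, Sox5 and Sox9), and the summed level of all 8, 13.6 to 16.5 TPM, was lowest in replicate 4. Comp, Sox5 and Sox9 were each lowest in replicate 4, where Col2a1 was highest, at 5.48, 4.84 and 1.89 TPM. Sox5 was almost as low in replicate 1, at 4.86 TPM, where Col2a1 was lowest. The secreted cartilage factor gene Cnmd was not detected. Its values of 0.0570, 0.304, 0.361, 0.957 and 0.716 TPM had the same order of libraries as Col2a1. Matn3 was listed at 0 in replicates 1 and 2 and at 0.133 TPM in replicate 4, whereas Acan, the aggrecan gene, stayed between 0.0848 and 0.133 TPM. The part of these markers in the spread of Col2a1 was not tested.

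FACIT chains were dominated by Col16a1, whose product associates with small fibrils. It had 389.7, 438, 431, 417 and 432 TPM, held 71.1% ± 1.91 of its class and ranked 337 of all 33014 genes. Its level overlapped that of Col3a1 and lay above that of Col1a1 in every library. The log2 ratio to Col12a1 was 3.71 ± 0.06 (13.1-fold; limma adjusted p = 2.27e-10, with 95.9% of all genes called). Of its 13 named transcripts, the estimated levels split mainly between one of 5351 bases (60.5% ± 2.14) and one of 5321 bases (22.8% ± 1.41). A shorter one of 3470 bases took 8.84% ± 1.33.

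Col14a1 and Col12a1 encode related FACIT chains that bind the surface of collagen I fibrils. Col14a1 was at 48.0, 74.1, 81.2, 95.4 and 86.9 TPM, and Col12a1 at 29.9 to 34.0 TPM. The Col14a1 level of replicate 1 lay well below the other libraries, so its ratio to Col12a1 ran from a log2 value of 0.63 in replicate 1 to 1.67 in replicate 4 (mean 1.22 ± 0.39; limma adjusted p = 5.80e-05). Both main Col14a1 transcripts were lowest in replicate 1, at 27.8 TPM for the one of 6133 bases and 18.4 TPM for the one of 6436 bases. Their shares, 54.7% ± 2.44 and 40.5% ± 2.82, moved little.

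The chains of collagen IX, a FACIT of cartilage in which different chains join in 1 molecule, were expressed very unevenly. Col9a3 was at 42.8, 50.4, 49.5, 44.4 and 47.5 TPM. Col9a2 was at 4.79 to 6.63 TPM and Col9a1 at 0.0649 to 0.287 TPM. None of these ranges overlapped, and Col9a1 rested on 4 to 12 reads per library. Col9a2 overlaps LOC108351024, a gene at 1.97 TPM, so its level is uncertain. Col20a1 was at 6.28 ± 0.587 TPM, and Col22a1, known from tissue junctions such as that of muscle and tendon, at 3.21 ± 0.272 TPM. Col19a1, at 0.185 ± 0.0314 TPM, was not detected.

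Of the type IV chains, Col4a1 and Col4a2, which build the ordinary basement membrane, were high and the tissue-restricted chains were low. Col4a1 was at 93.9, 112, 112, 119 and 114 TPM, and Col4a2 at 81.9, 92.1, 90.0, 94.2 and 87.5 TPM. Replicate 1 was the lowest library for both genes and replicate 4 the highest. The log2 ratio of Col4a2 to Col4a1 was -0.30 ± 0.07, with Col4a2 at 81.0% of Col4a1 (limma adjusted p = 0.000870, lower in 5 of 5 libraries, with 97.2% of all genes called). Col4a5 was at 1.40 ± 0.150 TPM, with a log2 ratio to Col4a1 of -6.20 ± 0.24. Col4a3, Col4a4 and Col4a6, chains of kidney and other specialised membranes, averaged 0.566, 0.305 and 0.138 TPM and were not detected. Col4a4 had no reads in replicate 1, where 3 reads would give 0.220 TPM.

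Type IV genes lie in head-to-head pairs, so the windows of the pairs whose windows overlap are shown, the first from the high genes and the second from the low ones, with motifs in capitals as above.
Col4a1 (GRCr8 chr16:84885347-84885646, plus strand): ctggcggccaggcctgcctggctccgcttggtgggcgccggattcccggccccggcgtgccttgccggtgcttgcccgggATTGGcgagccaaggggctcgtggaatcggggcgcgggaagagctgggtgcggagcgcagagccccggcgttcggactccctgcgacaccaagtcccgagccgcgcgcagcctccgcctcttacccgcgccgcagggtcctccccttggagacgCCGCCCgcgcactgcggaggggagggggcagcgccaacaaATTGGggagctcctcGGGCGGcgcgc
Col4a2 (GRCr8 chr16:84885471-84885770, minus strand): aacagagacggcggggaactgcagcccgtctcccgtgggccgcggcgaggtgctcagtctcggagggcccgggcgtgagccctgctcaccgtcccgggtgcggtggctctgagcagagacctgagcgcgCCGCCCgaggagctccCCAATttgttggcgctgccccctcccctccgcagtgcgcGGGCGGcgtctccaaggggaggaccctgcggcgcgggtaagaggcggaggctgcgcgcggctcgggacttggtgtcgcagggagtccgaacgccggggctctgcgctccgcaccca
Col4a3 (GRCr8 chr9:91323740-91324039, plus strand): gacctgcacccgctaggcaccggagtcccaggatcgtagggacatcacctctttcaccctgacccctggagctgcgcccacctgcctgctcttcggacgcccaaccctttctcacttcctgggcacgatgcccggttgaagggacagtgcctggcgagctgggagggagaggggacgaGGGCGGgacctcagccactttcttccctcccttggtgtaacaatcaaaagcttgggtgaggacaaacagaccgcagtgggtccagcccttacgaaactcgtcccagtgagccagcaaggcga
Col4a4 (GRCr8 chr9:91323528-91323827, minus strand): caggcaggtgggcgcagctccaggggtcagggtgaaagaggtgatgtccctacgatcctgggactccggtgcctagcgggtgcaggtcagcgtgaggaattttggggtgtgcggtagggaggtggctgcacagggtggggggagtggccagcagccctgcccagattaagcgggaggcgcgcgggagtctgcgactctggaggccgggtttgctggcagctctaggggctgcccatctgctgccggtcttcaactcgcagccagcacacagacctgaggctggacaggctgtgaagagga
The annotated starts of Col4a1 and Col4a2 lie 77 bases apart on opposite strands, and their windows share 176 bases. Those of Col4a3 and Col4a4 lie 413 bases apart and share 88 bases. The windows of the high pair have GC contents of 75.0% and 73.7%, with 38 and 37 CG dinucleotides. The windows of the low pair have GC contents of 62.0% and 65.3%, with 15 and 14 CG dinucleotides. None of the 4 holds TATAAA. Collagen windows had a median of 12 CG dinucleotides, against 7 for all windows. A match describes the letters of a window and shows no binding.

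Collagen VI forms beaded filaments around cells, from chains made in equal number in its usual trimer. Col6a1 was at 98.3, 87.4, 88.8, 101 and 89.1 TPM, and Col6a2 at 95.2, 88.2, 85.0, 98.4 and 86.8 TPM. Both were high in replicates 1 and 4 and low in the other libraries. The log2 ratio of Col6a2 to Col6a1 was -0.04 ± 0.03, and its 95% interval from limma runs from -0.16 to 0.09, that is from 89.6% to 106% of Col6a1 (limma adjusted p = 0.545). This was the only one of 19 tested ratios that was not called, while 97.1% of all genes were called different from Col6a1. Col6a3 was at 28.6 to 31.1 TPM, 32.1% of Col6a1 (log2 -1.64 ± 0.14; limma adjusted p = 3.50e-10). Its range stood apart from those of both partners.

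The α3-like chains were low or not detected. Col6a6 was at 4.15 TPM in replicate 1 and between 2.27 and 2.84 TPM in the others. Col6a5 and Col6a4 averaged 0.301 and 0.0128 TPM and were not detected. All 3 overlap the annotated span of Rpl29, a ribosomal protein gene at 1853 TPM, so their levels are uncertain. Col28a1, known in mouse from the basement membrane around peripheral glia, was at 45.4, 64.1, 67.1, 58.5 and 61.8 TPM. Its ratio to Col6a1 was -0.66 ± 0.30 on the log2 scale (limma adjusted p = 5.96e-05), and replicate 1 lay apart from the other libraries at -1.11.

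**Figure D3:**
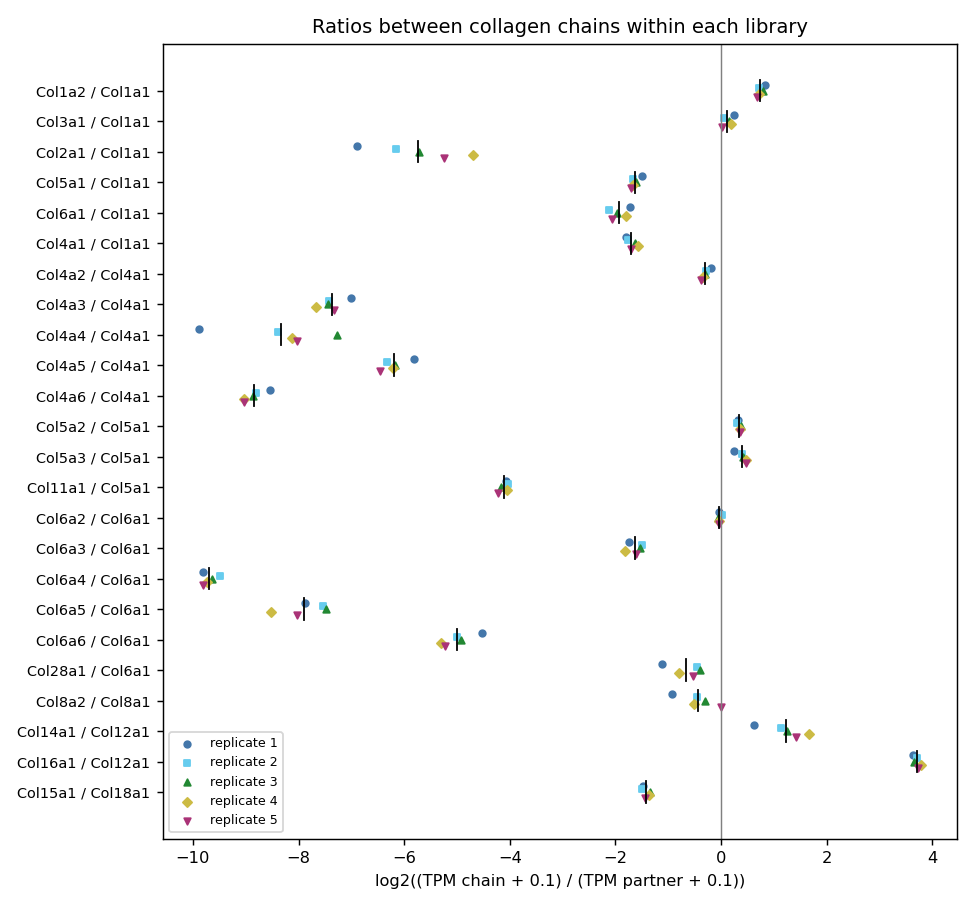
Log2 ratio of each chain to a partner chain within each library, with 0.1 TPM added to both; points are the 5 libraries and black lines the means. Col6a2 over Col6a1 sits at -0.04, Col1a2 over Col1a1 at 0.74, and Col2a1 over Col1a1 spreads from -6.89 to -4.70.

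Both multiplexins, which carry glycosaminoglycans and lie at basement membranes, were expressed evenly across libraries. Col18a1, the precursor of endostatin, was at 219.6, 221, 208, 202 and 210.1 TPM. Col15a1 was at 79.1, 78.0, 81.7, 78.4 and 77.0 TPM, with a CV of 2.25%. The groups of values stood apart, at a log2 ratio of Col15a1 to Col18a1 of -1.43 ± 0.07 (limma adjusted p = 1.07e-08, with 99.2% of all genes called). Col18a1 exceeded Col4a1 in every library.

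Col7a1, which forms the anchoring fibrils of skin, was at 36.1, 33.6, 31.5, 29.9 and 33.5 TPM. Of 5 keratinocyte markers measured, 2 were detected, Krt14 at 3.57 to 5.55 TPM and Krt10 at 2.23 to 2.96 TPM. The summed level of all 5 was 6.0 to 8.87 TPM. Krt5 averaged 0.0821 TPM, and Krt1 ran from 0 to 0.0325 TPM. Krt14 and Krt10 were highest in replicate 1, like Col7a1, whereas Krt5 and Dsg3 were highest in replicate 3. The part of these keratinocyte markers in the Col7a1 level was not tested. Col8a1 and Col8a2, short chains of vessel walls and the cornea, were at 8.75 ± 1.44 and 6.38 ± 0.661 TPM. Their log2 ratio was -0.44 ± 0.34 (Col8a2 over Col8a1; limma adjusted p = 0.00755, with 91.2% of all genes called), and without replicate 1 it was -0.32 (limma adjusted p = 0.0871). Mural cell markers, 7 of 8 detected, summed to 385, 367, 298, 300.3 and 217 TPM, mostly Tagln and Acta2. Myh11 and Des were also lowest in replicate 5, at 3.37 and 3.03 TPM. Pdgfrb (33.3 TPM in replicate 1 and 35.8 to 39.1 TPM in the others), Cspg4 and Notch3 did not follow the sum. Rgs5, which was not detected, was highest in replicate 5, at 1.5 TPM. The part of these markers in the Col8a1 level, lowest in replicate 5 at 6.74 TPM, was not tested. Col10a1, of growth plate cartilage, averaged 0.150 TPM and overlaps Nt5dc1.

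The transmembrane chains were all under the detection level. Col23a1 reached 0.608 to 0.905 TPM and Col13a1 0.285 to 0.567 TPM. Col17a1, of skin hemidesmosomes, averaged 0.278 TPM and Col25a1, known from neurons, 0.0638 TPM. Col26a1 averaged 0.114 TPM and had no reads in replicate 5, where 3 reads would give 0.0895 TPM. Col6a4 was listed at 0 in replicate 5.

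Replicate 1 was the lowest library for 16 of the 31 detected chains, against 24.4% of all detected genes. It was the highest for 4 of the 31, against 22.3% of all detected genes. The drop was largest for Col2a1, Col14a1 and Col28a1, at log2 values of -1.72, -0.81 and -0.47 relative to the mean of the other 4 libraries. For Col1a2 and Col5a2 it was -0.05 and -0.03, and Col6a6, Col8a1, Col7a1 and Col4a5 were instead highest there. Among Schwann cell markers, Mbp, a myelin gene, was at 622 TPM in replicate 1 against 873 to 1004 TPM in the others. S100b was also lowest there and Ngfr was highest there. Summed fibroblast markers were highest in replicate 1, at 956 TPM against 883 to 908 TPM, a sum held mostly by Thy1 and Dcn. Of these 8 markers, 4 were highest there (Thy1, Dcn, Pdgfra and Dpt), Fbln1 was lowest there, and Lum, Pi16 and Mfap5 were neither. Of 8 neuron markers, 5 were lowest in replicate 1, although their sum was not. Summed macrophage markers, at 1628 TPM, lay within the range of the others, 1220 to 1936 TPM. The part of these markers in the collagen levels was not tested.

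**Figure D4:**
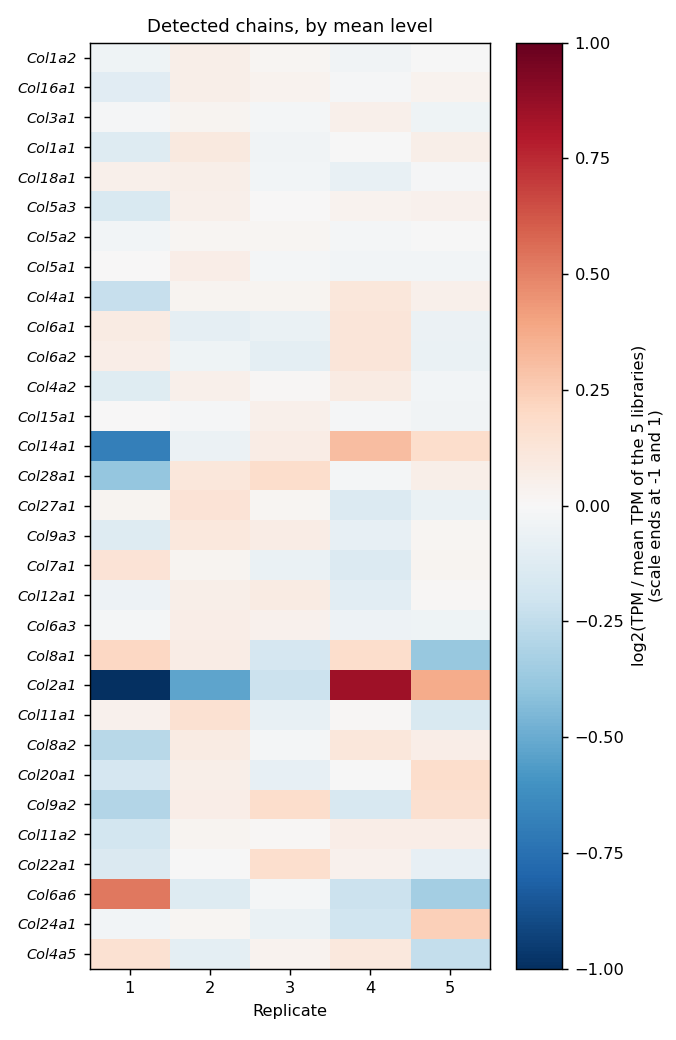
Deviation of each of the 31 detected chains from its mean, as log2(TPM / mean TPM), for replicates 1 to 5; blue is below and red above the mean, with the colour scale ending at -1 and 1. Col2a1 and Col14a1 show the deepest blue in replicate 1, where 16 chains have their lowest value.

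Collagen chains varied between libraries somewhat more than genes in general by median CV. The CV was under 10% for 22 of the 31 detected chains and over 20% for 3 of them (Col2a1, Col6a6 and Col14a1). Their median CV was 6.97%, against 5.81% over the 14228 genes with a mean of at least 1 TPM. The share of all genes under 10% or over 20% is not given here, so those counts describe the chains alone. The edgeR fit covered the 18 chains with recovered reads that passed its filter on low counts. In it, the biological coefficient of variation (BCV) estimates spread beyond counting noise. Of these 18 chains, 11 lay above the trend for their read number, against 30.4% of all 8871 fitted genes. Col14a1 had a BCV of 15.7% at a trend of 4.45%, and Col28a1 one of 9.11% at a trend of 4.16%. Col15a1, Col1a2, Col5a1 and Col3a1 were among the 7 chains below the trend.

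**Figure D5:**
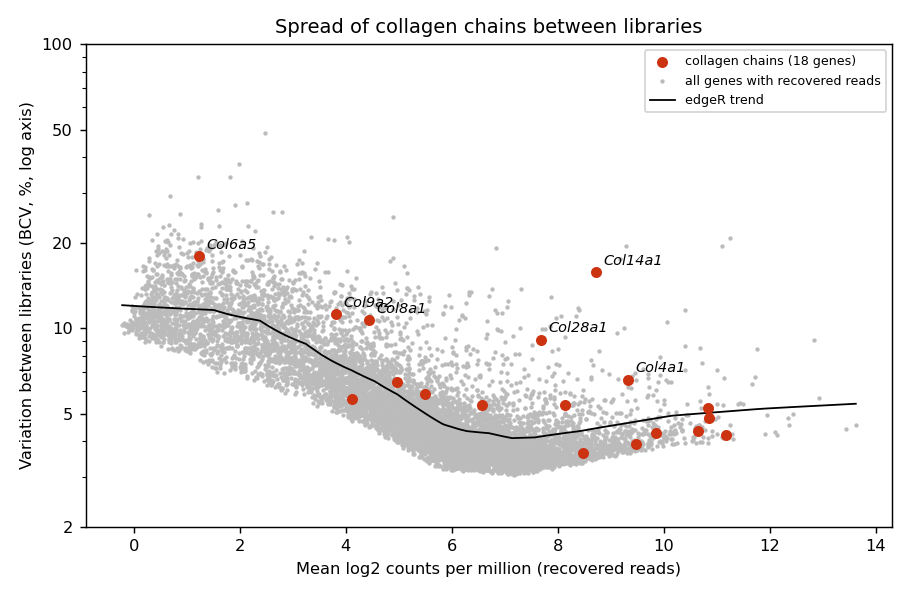
BCV in percent (log axis) against mean log2 CPM, with the 18 fitted collagen chains in red, all 8871 fitted genes in grey and the edgeR trend in black. Col14a1, at 15.7%, and Col28a1, at 9.11%, stand above the trend.

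Of 35 measured genes that modify, export, process or cross-link collagen, 33 were detected, against 41.3% of all genes. All 14 genes for modifying chains were detected, led by Ppib (668 ± 43.0 TPM) and P4hb (523 ± 13.4 TPM), which serve proline isomerisation and hydroxylation. P4ha1, the catalytic prolyl hydroxylase chain, had 249 ± 4.52 TPM and Plod1, a lysyl hydroxylase, 219 ± 7.83 TPM. P4ha3 and P3h2 were lowest, at 6.63 and 2.95 TPM. All 9 folding and export genes were detected, with Serpinh1, the collagen chaperone HSP47, at 803 ± 82.4 TPM, then Sec13, Fkbp14 and Mia3 at 86.0, 58.5 and 56.5 TPM, and Mia2 and Sec24d lowest at 30.8 and 23.4 TPM.

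Genes for processing and cross-linking were detected for 6 of 7 and 4 of 5 members. Bmp1, the C-propeptide protease, was at 100.4 ± 5.89 TPM and its enhancer Pcolce at 83.7 ± 4.86 TPM. Adamts2, an N-propeptide protease, had 13.1 ± 0.891 TPM, Tll1 2.40 TPM and Adamts14 1.51 TPM, and Tll2 was not detected at 0.248 TPM. Among the lysyl oxidases that cross-link fibrils, Loxl1 (51.1 ± 2.43 TPM) and Loxl2 (36.4 ± 2.86 TPM) exceeded Loxl3 (13.2 to 14.9 TPM) and Lox itself (5.06 ± 0.723 TPM), with no overlap of ranges, and Loxl4 was at 0.446 TPM.

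Of 12 collagen receptor genes, 9 were detected. Itgb1, the shared integrin β1 subunit, had 535 ± 7.03 TPM, and its collagen-binding partners Itga1 and Itga2 had 20.5 ± 2.58 and 7.42 ± 0.365 TPM. Ddr1, a receptor kinase, was at 105 ± 5.33 TPM and Ddr2 at 27.5 ± 1.92 TPM. The adhesion receptor gene Adgrg1, whose product binds collagen III, was at 96.9 ± 4.70 TPM, and Adgrg6, a Schwann cell myelination receptor that binds collagen IV, at 35.8 ± 1.72 TPM. Itga11 and Itga10 were lowest, at 0.892 and 0.0501 TPM.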

How the data were processed

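Poly-A RNA of 5 cultures was sequenced. Per the submitters' processing notes, Trim Galore 0.6.6, cutadapt 2.8 and Salmon 1.5.1 were used with build mRatBN7.2; their settings, strand included, were not stated. Gene levels came from the authors' combined table, in TPM. Salmon output for each library lists 98811 transcripts with length, TPM and, per the file headers, an estimated count.

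Transcripts were matched, version ignored, to a RefSeq table of GRCr8, naming 67330 (68.1%). Reads counted as recovered for 19270 genes (21 of 44 chains) whose named transcripts summed to within 10% of the gene TPM in every library. These held 67.1% to 67.4% of reads, and estimated counts were rounded before fitting.

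Ratios of log2(TPM + 0.1) were fitted with limma 3.58.1 (intercept only, empirical Bayes), 1 fit per partner chain over genes with a mean of at least 1 TPM, Benjamini-Hochberg adjusted over all of them, two-sided, threshold 0.05. Of 24 chosen ratios, 19 passed the filter. BCV came from edgeR 4.0.16 (TMM, filterByExpr, intercept only). DESeq2 1.42.0 served as an alternative. The scripts were tested on simulated data. Intervals and floors (3 reads) cover counting error only, except the limma intervals.

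The chains, lists, ratios and tests were chosen with earlier results of these data known. All chains are named, with the 4 highest and up to 2 lowest genes of each pathway list; other genes were chosen after their values were seen. Listed genes not in the table were not analysed here, and the Schwann cell marker list is reported in part.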

Additional observations from a re-analysis of the deposited data

Results flagged for a closer look

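Of 77 values tested over the 5 libraries (44 chain levels, 8 class shares, 24 ratios and the summed level), 4 had 1 library far from the others, judged by the gap to the nearest library as a share of the whole range, with a limit of 0.71. Chance flags about 1 in 20. Col11a2 had 4.38 TPM in replicate 1 and 5.02 to 5.22 TPM in the others (gap share 0.757). Col5a3 had 137 TPM in replicate 1 and 153 to 158 TPM in the others (gap share 0.774). Col19a1, which was not detected, had 0.240 TPM in replicate 4 and 0.166 to 0.179 TPM in the others (gap share 0.824). The share of the transmembrane class was 0.0592% in replicate 1 and 0.0417% to 0.0465% in the others (gap share 0.722).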

How the results depend on the processing

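No contrast between groups was possible because there is 1 group. The ratios between chains were taken within each library. The count of detected chains was 31, also without any single replicate, and 20 with sums of named transcripts, where 8 chains have none. With these sums the summed level was 2733 TPM in place of 3238 TPM, and 15 of 36 chain levels moved by more than 1 SD, among them Col7a1 (0.0718 TPM), Col12a1 (0.722 TPM), Col8a2 (0.0921 TPM), Col27a1 (18.3 TPM) and Col2a1 (1.15 TPM). Transcripts without a name explain lower sums by construction.

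Class shares from those sums were 59.1% fibrillar, 20.2% FACIT, 10.7% multiplexin, 5.51% beaded filament, 4.08% type IV, 0.324% short network, 0.0194% transmembrane and 0.00687% anchoring fibril and other. From reads of recovered chains without length normalization they were 57.1% fibrillar, 21.4% FACIT, 11.3% multiplexin, 4.33% beaded filament, 5.63% type IV, 0.190% short network and 0.00229% anchoring fibril and other. Chains without recovered reads are absent from these read shares, among them Col6a1, Col6a3, Col4a2, Col7a1 and Col12a1. The read shares therefore differ from the main ones in the chains covered as well as in length normalization.

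Of 19 ratios 18 were called in the main fit, 16 to 18 without single replicates, 8 of 8 that could be fitted with transcript sums and 6 of 6 in CPM. The exact sign-flip test over 5 libraries cannot go below p = 0.0625 and called 0. Col1a2 over Col1a1 was 0.34 in CPM in place of 0.74. Col3a1 over Col1a1 reversed to -0.18 in CPM; its call was also lost with no filter on low values (limma adjusted p = 0.0617). Chains above the BCV trend numbered 9 to 11 without single replicates, 12 with DESeq2 dispersions and 14 with no filter. The share of all genes above the trend is not given here for these settings. More chains can enter with no filter, and DESeq2 estimates the spread of a gene differently. These counts therefore cannot be set directly against that of the main fit. Detection rests on the limit of 1 TPM: undetected Col6a5 had 25 to 47 reads per library, and Col9a1 had 4 to 12.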
